A study of Mus musculus with 2 samples.

Results

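The cells described here were the interferon-responding cells among thymic invariant natural killer T (iNKT) cells of the stage 3, iNKT1 type. They were chosen by measured values. A cell was a member when the transcripts of 6 interferon-stimulated genes, Ifit1, Ifit3, Ifit3b, Isg15, Rsad2 and Usp18, summed to at least 4 unique molecular identifiers (UMIs, each standing for a captured transcript). The search covered cells with at least 1000 detected genes, at most 5% mitochondrial UMIs, and at least 80% of at least 10 hashtag UMIs on hashtag row 12, 14, 16 or 18. Of the 5758 such cells, 231 were members, 984 had a sum of 1 to 3 and 4543 had a sum of 0. The cells with a sum of 0 in the same rows served as the comparison throughout. The series held 16179 barcodes, of which 10007 passed the same filters on any of the 8 hashtag rows in use.

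The study sorted thymocytes that bind the CD1d tetramer (CD1dt) from C57BL/6 mice with and without Kidins220, a membrane scaffold protein that binds the T cell receptor. T-KO mice were Kidins220 fl/fl with LckCre, in which the proximal Lck promoter drives Cre in developing T cells. Ctrl mice also carried LckCre and had at least 1 Kidins220 allele that Cre cannot delete. Stage 0 cells were sorted as TCRβ+ CD1dt+ CD24+ NK1.1- and stage 3 cells as TCRβ+ CD1dt+ NK1.1+ CD24- CD44+, from 4 pooled thymi per genotype and in parallel repeats of the sort. The ages of these mice were not given for this experiment in the sources used here. The 8 populations were marked with hashtag antibodies, which bind a surface protein and carry a readable barcode, and were captured together as 1 droplet library. The labels pair the populations with hashtags 1 to 8, whereas the UMIs lay on hashtag rows 11 to 18. Hence no row was given a stage or a genotype, and Ctrl and T-KO were not compared. Gene ratios were taken within each row, and levels are given by row or over the 4 rows together. No test of a difference between groups of cells was run.

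Type I interferons signal through the receptor chains IFNAR1 and IFNAR2 and the kinases JAK1 and TYK2. These activate a complex that holds STAT2 and IRF9 and binds the interferon-stimulated response element in promoters. Its targets include IRF7, which amplifies the response, sensors of foreign RNA and DNA, restriction factors, and the inhibitors USP18 and SOCS1. IFN-γ, a product of iNKT1 cells themselves, acts through a receptor of its own on an overlapping set of genes, in which guanylate binding proteins and antigen presentation genes are prominent. In the thymus, medullary epithelial cells are a known source of type I interferon in the absence of infection.

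The promoters of the rule genes shared the core of this response element. The pattern TTTCNNTTTC was searched on both strands of the 250 bases before the transcription start, in RefSeq promoter sequences of build GRCm38.p6, with overlapping matches allowed. It was found in all 5 rule genes that the sequence table held, against 936 of its 27025 genes (3.46%). The windows of 4 rule genes and of Slfn5, an antiviral gene that was not used by the rule and was among those furthest above the comparison cells, are printed because they show the shared element. They read 5′ to 3′ on the strand of the gene, and capitals mark the letters of each match on either strand.
Isg15, chr4:156200850-156200909, - strand: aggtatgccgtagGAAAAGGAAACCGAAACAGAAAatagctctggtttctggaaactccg
Ifit1, chr19:34640779-34640838, + strand: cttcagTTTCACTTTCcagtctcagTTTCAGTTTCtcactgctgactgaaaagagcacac
Ifit3b, chr19:34607778-34607837, + strand: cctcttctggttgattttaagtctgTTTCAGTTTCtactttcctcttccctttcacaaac
Rsad2, chr12:26456538-26456597, - strand: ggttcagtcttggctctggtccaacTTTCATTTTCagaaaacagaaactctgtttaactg
Slfn5, chr11:82951922-82951981, + strand: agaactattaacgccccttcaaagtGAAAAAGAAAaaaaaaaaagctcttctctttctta
In Isg15, 3 overlapping matches lay on the other strand and ended 57 bases before the start. Ifit1 held 2 matches on the strand of the gene. The corresponding window of Ifit3 was equal to that of its neighbour Ifit3b at all 60 bases. A match describes the letters and is not a measured binding site.

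Members made up 4.01% of the cells of the 4 rows (exact Clopper-Pearson 95% interval 3.52 to 4.55%). Row 12 held 78 members among 1752 cells, a share of 4.45% (3.53 to 5.53%). Row 14 held 53 among 2162 cells, a share of 2.45% (1.84 to 3.19%). Row 14 had the lowest share, and its interval lay below those of the other rows. Row 16 held 30 among 577 cells, a share of 5.20% (3.54 to 7.34%), and row 18 held 70 among 1267 cells, a share of 5.52% (4.33 to 6.93%). The intervals of rows 12, 16 and 18 overlapped each other. These intervals, like those on counts per 1000000 UMIs (CPM) used below, cover counting error only and leave out any spread between mice, pools and sorts.

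A threshold on summed UMIs also reads depth. The median depth was 3258 to 3804 UMIs per cell in the 4 rows, and row 14 was the shallowest. When cells with at least 2000 UMIs were thinned to 2000 UMIs each, the share of members was 2.71% (2.28 to 3.19%) over the 4 rows. It was 3.14% in row 12, 1.27% in row 14, 4.32% in row 16 and 3.89% in row 18. Row 14 was still the lowest at equal depth, with an interval of 0.824 to 1.87% that lay below the other 3. Within the rows, members and comparison cells were of similar depth, with overall medians of 3492 and 3355 UMIs and of 1627 and 1568 genes per cell. The median mitochondrial share was 1.63% in members and 1.74% in comparison cells, and the median share of hashtag UMIs on the assigned row was 95.9% and 95.8%.

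**Figure D1:**
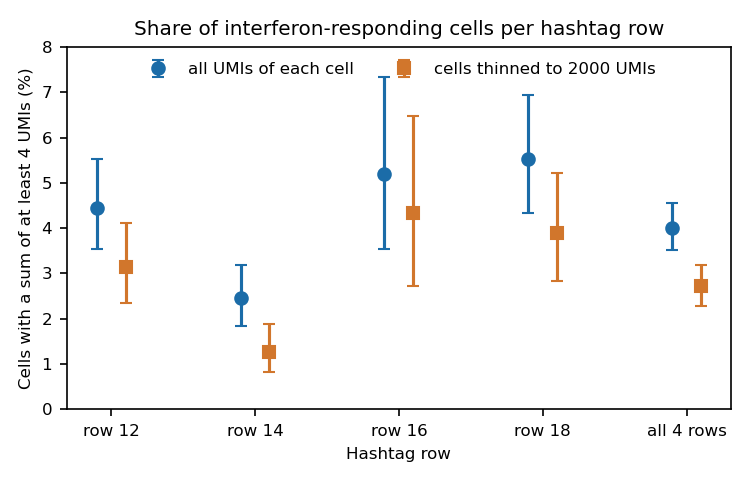
Percent of cells with at least 4 summed UMIs of the 6 rule genes (vertical axis) in hashtag rows 12, 14, 16 and 18 and in all 4 together, with all UMIs and with cells thinned to 2000 UMIs. Bars are exact 95% Clopper-Pearson intervals, which cover counting error only; row 14 is lowest both ways, at 2.45% and 1.27%.

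The sum had a long tail with no gap at the threshold. There were 762 cells with a sum of 1, 161 with 2, 61 with 3, 34 with 4 and 37 with 5. The median sum of the members was 8 and the highest 68, and 99 members had a sum of 10 or more. Of the 231 members, 194 (84.0%) held UMIs of at least 3 rule genes. A threshold on the sum of these genes favours such cells, so the count is a description. All 6 were found in 30 members, while 7 members reached the sum with a single gene.

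Isg15, a ubiquitin-like protein that is coupled to other proteins, supplied 33.6% of the rule UMIs and was detected in 88.7% of the members. The RNA-binding antiviral proteins Ifit3, Ifit3b and Ifit1 supplied 21.0%, 20.1% and 15.3%. Ifit3 (chr19:34583119-34588982) and Ifit3b (chr19:34607530-34613403) are close copies, so the division of reads between them is uncertain. Usp18, which removes Isg15 from proteins and blocks the interferon receptor, was detected in 41.6% of the members, and the antiviral enzyme Rsad2 in 25.5%. Because these genes chose the cells, their levels are a description. Isg15 stood at 1124, 1076, 1272 and 971 CPM in the members of rows 12, 14, 16 and 18, and at 0 in the comparison cells by construction.

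The members carried the markers of iNKT1 cells. At least 3 UMIs of the markers Klrb1c (NK1.1), Nkg7, Tbx21 (T-bet), Il2rb, Klrd1, Xcl1 and Trav11 were found in 226 of 231 members (97.8%) and in 97.7% of the comparison cells. Tbx21, the lineage-defining transcription factor, stood at 206 CPM in members and 202 CPM in comparison cells, against 4.44 CPM in the other 4 hashtag rows in use. Of 6 stage 0 markers, Sox4, a gene of immature thymocytes, stood at 12.4 CPM in members and 301 CPM in the other rows. Cd24a (45.0 against 349 CPM), Ikzf2 (57.4 against 234), Ldhb (11.3 against 83.3) and Itm2a (99.1 against 186) were also lower than there. Egr2 was not, at 19.1 against 15.0 CPM. The 6 markers summed to 244 CPM in members and 242 CPM in comparison cells. The receptor transcripts were alike too. Trav11 with its copies Trav11d and Trav11n, the Vα14 segment of iNKT cells, took 31.1% of the Trav UMIs in members (24.1 to 38.8%) and 28.9% in comparison cells. Trbv13-2, a Vβ8 segment, took 48.2% of the Trbv UMIs in members (45.4 to 51.0%) and 48.3% in comparison cells.

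Summed markers of other cells were near or below the comparison level in members, with the partial exception of myeloid genes. Gamma-delta T cell markers summed to 143 CPM in members and 122 CPM in comparison cells. At least 3 UMIs of them were found in 4.33% and 3.17% of cells. Markers of iNKT2 cells summed to 82.2 and 65.0 CPM. Those of iNKT17 cells summed to 7.88 and 8.93 CPM, but to 55.7 CPM in the members of row 16. Of 5 B cell markers, 4 were detected, at 33.8 CPM together against 40.4 CPM in comparison cells. No member held 3 UMIs of them (exact interval 0 to 1.58%). Of 5 markers of plasmacytoid dendritic cells, Tcf4, Ccr9 and Ly6d were detected, and the list summed to 35.0 to 59.5 CPM in the members of the rows and 62.0 to 83.1 CPM in the comparison cells. The defining markers Siglech and Cox6a2 were at 0 UMIs in members, but at 0.440 and 0.315 CPM in comparison cells they were too rare for a difference to be detectable at this depth. Of 6 myeloid markers, 5 were detected and Cd209a was at 0. Their summed level was 181, 0, 167 and 10.7 CPM in the members of rows 12, 14, 16 and 18, against 9.07 to 50.4 CPM in the comparison cells of the rows. Most of this was Lyz2, at 61.9 CPM in members and 13.2 CPM in comparison cells. Few cells carried it, as 4 members held at least 3 myeloid UMIs and 222 held none. The part of these cells in the results below was measured by leaving out 7 members and 118 comparison cells that held at least 3 myeloid or B cell UMIs or fewer than 3 UMIs of iNKT1 markers.

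Every gene was then compared within its row, as the log2 ratio of (CPM + 10) in members over comparison cells, and the ratios of the 4 rows were averaged. A gene was counted as higher or lower when this average passed 2-fold and all 4 rows had the same direction, which is a rule of size and not a test. The comparison took in the 8168 genes with at least 200 UMIs that the rule did not use. This minimum was counted over all cells of the 4 rows, members included. A gene rare in comparison cells could thus enter through its UMIs in members, which favours genes that are higher. Of these, 101 were higher (1.24%) and 15 were lower (0.184%). Lists of interferon-related genes held most of the former. Of their 137 compared genes, 80 were higher and 0 lower, and 116 were higher in all 4 rows at any size, against 5.73% of all genes compared. The median log2 ratio was 1.31 over these genes and -0.12 over all genes. Without the cells that carried other markers, 103 genes were higher, 98 of them among the 101.

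The receptor chains and kinases at the head of the pathway did not stand out in members. Ifnar1 stood at 95.5, 97.3, 55.7 and 114 CPM in the members of rows 12, 14, 16 and 18, and at 76.6 to 87.1 CPM in the comparison cells. Its partner chain Ifnar2 stood at 117 CPM over all members and 105 CPM in comparison cells. Jak1, Jak2 and Tyk2 had average log2 ratios of -0.09, 0.14 and -0.29. The factors that carry the signal to the nucleus were higher instead.

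Irf7, the amplifying transcription factor and one of the markers of these cells, stood at 729, 557, 576 and 633 CPM in the members of rows 12, 14, 16 and 18. In the comparison cells of the same rows it stood at 58.3, 61.5, 47.9 and 63.3 CPM, so the groups were far apart in every row (average log2 ratio 3.22). Stat2, which joins Irf9 in the activated complex, stood at 76.4, 146, 130 and 64.0 CPM in members and at 18.1 CPM over all comparison cells (1.99). Irf9, its DNA-binding part, stood at 137, 189, 65.0 and 117 CPM in members and at 31.9 to 35.9 CPM in comparison cells (1.56). Both were above the comparison cells in every row. Of the 19 compared transducers, 6 were higher, among them Pml (1.99), which forms nuclear bodies, and Nmi (1.01), an interferon-induced adaptor.

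Several regulators stayed under 2-fold. Socs1, an inhibitor of JAK kinases, stood at 223, 222, 399 and 199 CPM in members and at 117 to 135 CPM in comparison cells, higher in all 4 rows (0.94). Irf1, a transcription factor induced by IFN-γ, stood at 241 against 148 CPM (0.74). Irf8 was uneven, at 220, 70.3, 27.9 and 21.3 CPM in the members of rows 12, 14, 16 and 18 and at 30.2 CPM or less in the comparison cells. Irf8 is also a gene of dendritic and B cells. Members of row 12, where it was highest, had the highest level of myeloid markers given above, and those of row 14, the next, had none. Ifng itself was lower in all 4 rows, at 118, 162, 65.0 and 117 CPM in members and 178, 192, 95.7 and 125 CPM in comparison cells (-0.34). Of the 20 genes of type I and III interferons in the feature table, 3 UMIs were counted in all cells of the 4 rows.

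Sensors of foreign nucleic acids formed the list with the highest median log2 ratio (2.12), and 20 of its 22 compared genes were higher. Oasl2, of the oligoadenylate synthetase family, stood at 124, 70.3, 167 and 203 CPM in the members of the 4 rows and at 3.41 to 5.71 CPM in comparison cells (3.28). Its relative Oasl1, which restrains translation of Irf7, stood at 102 against 4.09 CPM (3.02). These were among the genes nearest to absence in the comparison cells. Both passed the minimum for comparison only with the UMIs of members included, as Oasl2 held 76 UMIs in comparison cells. Oasl1 held exactly 200 UMIs over the 4 rows, that minimum, and dropped out of the comparison when the cells with other markers were left out. Zbp1, a sensor of Z-form nucleic acids, stood at 399 against 43.9 CPM (2.81), the RNA-dependent kinase Eif2ak2 at 144 against 17.6 CPM (2.57), and the RNA helicase Ifih1 at 111 to 132 CPM in the rows of members against 11.9 to 17.1 CPM (2.44). Only Cgas (0.54) and Tmem173 (0.14), the DNA sensor and its adaptor STING, were compared and not past 2-fold.

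Of the 47 compared antiviral effectors, 33 were higher and 44 were higher in all 4 rows, with a median log2 ratio of 1.69. Isg20, an exonuclease of single-stranded RNA, stood at 417, 324, 418 and 409 CPM in members and at 28.7 to 36.9 CPM in comparison cells (3.25). Slfn5, whose promoter window is printed above, stood at 242, 124, 223 and 142 CPM in members and at 7.56 to 11.7 CPM in comparison cells (3.24). The level in members was thus above that of the comparison cells in each row for both genes. The tether of budding virions Bst2 stood at 846 against 106 CPM (2.93), and the chaperone Rtp4 at 358 against 39.3 CPM (2.97). Ifitm3, which blocks viral entry, was the least even of these, at 248, 59.5, 455 and 174 CPM in the members of the 4 rows. The surface proteins of the Ly6 family differed in size, with Ly6a at 944 against 293 CPM (1.69) and the already abundant Ly6e at 3701 against 2773 CPM (0.39). Ifi27 was lower in all 4 rows (-0.31), although its relative Ifi27l2a stood at 1456 against 263 CPM (2.41).

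The guanylate binding proteins and immunity-related GTPases, which attack the membranes around intracellular microbes, were higher almost throughout. Of 14 compared, 13 were higher, and the 1 that was not, Gbp8, had an average of 0.91. Gbp6 stood at 213, 216, 260 and 231 CPM in members and at 11.4 to 16.6 CPM in comparison cells (3.30), the highest average of all compared genes outside the rule. Igtp stood at 319 against 53.2 CPM (2.41) and Tgtp1 at 213 against 28.8 CPM (2.58). Gbp2, a target of IFN-γ as well, stood at 212 against 37.6 CPM (2.18). Members of this family are close copies, so single values carry some uncertainty in the assignment of reads.

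**Figure D2:**
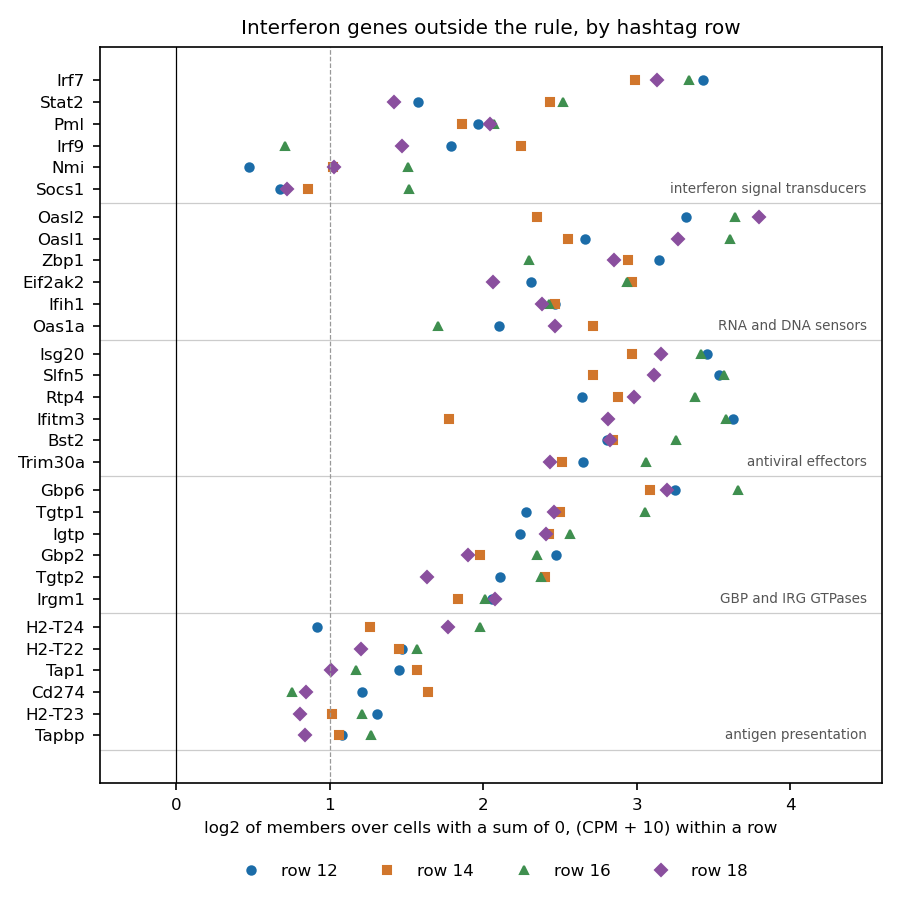
Log2 ratio of (CPM + 10) in members over cells with a sum of 0 (horizontal axis) for 6 genes with a high average in each of 5 interferon lists; each symbol is 1 hashtag row. All symbols lie right of 0, and Irf7 lies near 3.22 on average while the antigen presentation genes lie near 1; the dashed line marks 2-fold.

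Antigen presentation genes were higher by smaller factors from a higher starting level. Of 20 compared, 6 were higher past 2-fold, but 19 were higher in all 4 rows, and the summed level of the list was 14764 CPM in members and 9924 CPM in comparison cells. The classical class I chain H2-K1 stood at 2859, 3131, 3695 and 2969 CPM in members and at 2190 to 2357 CPM in comparison cells (0.47). Its partner B2m stood at 2118 against 1597 CPM (0.43). The ranges of the rows did not overlap for either gene. The non-classical chains H2-T22 (1.42) and H2-T23 (1.09), the peptide transporter subunit Tap1 (1.30) and Cd274, the checkpoint ligand PD-L1 (1.11), were past 2-fold. The trimming peptidase Erap1 was the gene not higher in all 4 rows (-0.17). Among 15 other interferon-induced genes, 2 were higher, Hsh2d (1.76), an adaptor of lymphocytes, and Znfx1 (1.28), a helicase that binds viral RNA.

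Levels of interferon genes outside the rule differed between classes of the summed UMIs. Whether single cells respond by degrees was not tested. Irf7 stood at 59.5 CPM in cells with a sum of 0, 125 CPM with a sum of 1 to 3, 473 CPM with a sum of 4 to 9 and 834 CPM with a sum of 10 or more. Just outside the threshold, the 61 cells with a sum of 3 had 242 CPM of Irf7, and just inside it the 34 cells with a sum of 4 had 436 CPM. Gbp6 stood at 15.0, 33.7, 163 and 295 CPM over the same 4 classes. The order of these levels follows the measured sums and is given as a description. Not every gene followed it to the top, because Ifi27l2a stood at 1537 CPM with a sum of 4 to 9 and 1367 CPM with a sum of 10 or more. H2-K1 likewise stood at 3108 and 2990 CPM in these classes. Socs1 differed mainly at the top, with 124, 122, 161 and 321 CPM over the 4 classes.

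**Figure D3:**
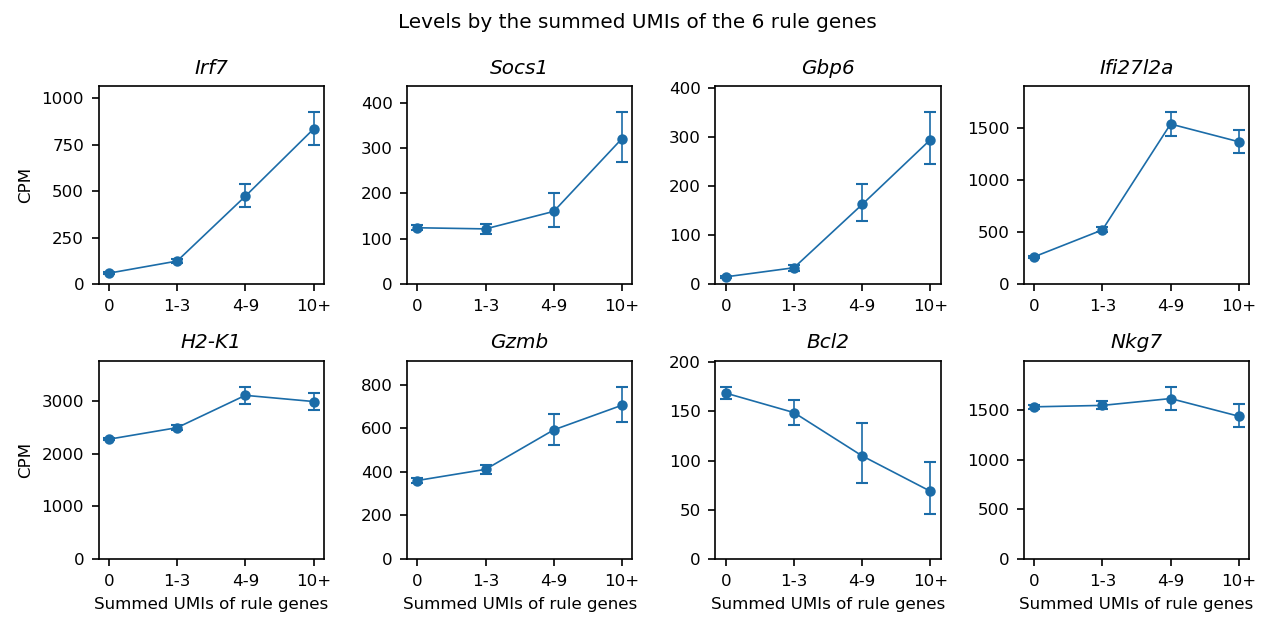
Level in CPM (vertical axes, each from 0) of 8 genes in cells grouped by the summed UMIs of the 6 rule genes (4543, 984, 132 and 99 cells); bars are exact 95% Poisson intervals, which cover counting error only. Irf7 goes from 59.5 to 834 CPM and Bcl2 from 169 to 68.9 CPM, while Nkg7 stays between 1438 and 1616 CPM.

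Shares of cells with a UMI gave the same picture at equal depth. After thinning to 2000 UMIs, Irf7 was detected in 71.4% of 217 members and 11.3% of 4065 comparison cells. Bst2 was detected in 71.4% and 18.5%, and before thinning in 81.4% and 28.6%. In the other 4 hashtag rows, with a median depth of 7135 UMIs before thinning, the thinned shares were 13.9% for Irf7 and 30.4% for Bst2. The comparison cells were thus near the cells of the other rows for Irf7 and below them for Bst2, and the members were above both. Unlike the comparison cells, the cells of the other rows were not chosen by the summed UMIs of the rule genes. Before thinning, 5.66% (row 17) to 16.7% (row 11) of them had a sum of at least 4. The part of this choice in the order of the groups was not tested.

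The promoters of the higher genes held the response element more often than promoters at large. TTTCNNTTTC was found in 29 of the 67 higher interferon genes with a listed promoter (43.3%, 31.2 to 56.0%), and in 6 of 48 compared interferon genes that were not higher (12.5%). Among the 6509 compared genes with a listed promoter the share was 3.36%. It was found in 7 of 18 listed genes that were higher outside the interferon lists (38.9%, 17.3 to 64.3%) and in 0 of 12 that were lower (exact interval 0 to 26.5%). Some genes with a high ratio, such as Irf7, Oasl2 and Isg20, had no match in this window.

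Outside the interferon lists, 21 of 8031 compared genes were higher. The furthest were Trafd1, a feedback regulator of innate signalling, at 172, 195, 241 and 235 CPM in members and 30.9 to 45.5 CPM in comparison cells (2.18), and Ifi214, a member of the interferon-inducible p200 family, at 115 against 18.9 CPM (2.14). Ifit1bl1 had an average of 1.91, but its gene model (chr19:34592888-34662981) spans Ifit1, so reads of the 2 genes may be confused. AW011738 (1.24), a non-coding gene, is a neighbour of Isg15 on chromosome 4.

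Xdh, xanthine dehydrogenase of purine breakdown, stood at 121, 54.1, 111 and 64.0 CPM in members and at 15.3 to 26.9 CPM in comparison cells (1.61). Jaml, an adhesion receptor of T cells and leukocytes, stood at 216, 157, 195 and 92.5 CPM in members and at 32.4 to 69.4 CPM in comparison cells (1.51). Nampt, the rate-limiting enzyme of NAD salvage, stood at 49.6 against 13.7 CPM (1.40), and Clic4, a chloride intracellular channel protein, at 57.4 against 15.9 CPM (1.42). Each was above the comparison cells in all 4 rows. Ctss, a lysosomal protease abundant in myeloid cells, had an average of 1.10 that was 0.84 without the cells with other markers. Trafd1, Ifi214 and Jaml were the 3 genes outside the lists that were higher under every alternative setting of the comparison at 2-fold.

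Of the lists that describe iNKT1 cells, those of identity and effector genes had nearly the same summed level in both groups. Over all genes compared, 1.24% were higher and 0.184% lower past 2-fold, so few calls can fall in lists this small. None of the 15 compared identity genes was past 2-fold, and their summed level was 6859 CPM in members and 6880 CPM in comparison cells. None of the 17 compared effector genes of the iNKT1c subset was past 2-fold either, with 5314 and 5238 CPM summed. The iNKT1a list had 0 of 13 genes past 2-fold. Beside 15.6% lower and 5.73% higher in all 4 rows over all genes compared, this list had 4 genes lower and 1 higher. Its summed level was 1929, 2396, 1876 and 2272 CPM in the members of rows 12, 14, 16 and 18 and 2268, 2493, 2255 and 2575 CPM in the comparison cells, lower in each row, with 2128 CPM (2034 to 2227) against 2420 CPM (2396 to 2444) over all cells. Izumo1r, an iNKT1a gene, stood at 173 and 165 CPM, higher in 2 of 4 rows. Ccl5, a chemokine of the effector subset, stood at 688 and 787 CPM, higher in 1 of 4 rows.

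The single effector and activation genes Gzmb, Cd69 and Xcl1 were higher in every row, by averages under 2-fold. Of the 17 compared iNKT1c effector genes, 2 were higher and 1 was lower in all 4 rows. Over all genes compared these shares were 5.73% and 15.6%. The median log2 ratio of the effector list was -0.12, as over all genes. Gzmb, which encodes the cytotoxic protease granzyme B, stood at 519, 676, 929 and 661 CPM in the members of rows 12, 14, 16 and 18 and at 255, 319, 444 and 529 CPM in the comparison cells (0.86). Members were above the comparison cells of their own row in each case, although the ranges over rows overlapped. Without row 18 the average was 1.03, past 2-fold. At equal depth Gzmb was detected in 53.0% of members (46.1 to 59.8%) and 36.0% of comparison cells (34.5 to 37.5%), against 1.64% in the other rows. Before thinning the shares were 62.3% and 46.3%. Gzmb also followed the sum, at 360, 412, 593 and 706 CPM over the 4 classes of cells.

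Cd69, a receptor that retains activated cells in tissue and is induced by both antigen and type I interferon, stood at 153, 227, 214 and 217 CPM in members and at 101, 136, 68.8 and 126 CPM in comparison cells (0.87). It was detected at equal depth in 31.8% of members and 18.2% of comparison cells, but also in 16.6% of the other rows. The share in comparison cells is thus near that of the other rows, and that in members is above both. Cells of the other rows were not chosen by the summed UMIs. The chemokine Xcl1 stood at 341, 487, 501 and 423 CPM in members and at 254 to 284 CPM in comparison cells (0.64), with no overlap of the rows. Its share of cells at equal depth was 41.9% and 36.8%, higher in 3 of 4 rows. The list of T cell receptor response genes as a whole had 0 of 17 compared genes past 2-fold. In all 4 rows 2 of them were higher, against 5.73% of all genes compared, and 0 were lower, against 15.6%. The median log2 ratio of the list was -0.10, beside -0.12 over all genes. Its summed level was 1898 CPM in members and 1797 CPM in comparison cells.

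Bcl2, an inhibitor of apoptosis, was lower in members of every row. It stood at 79.6, 103, 55.7 and 99.6 CPM in the members of rows 12, 14, 16 and 18 and at 166, 176, 156 and 166 CPM in the comparison cells (-0.93). The rows of the 2 groups did not overlap. The average was close to 2-fold and passed it under 4 alternatives, at -1.03 with a sum of at least 6, -1.05 with looser cell filters (500 genes, 10% mitochondrial UMIs), -1.01 with a pseudocount of 1 CPM and -1.01 without row 18. Other alternatives gave smaller differences, among them -0.76 with at least 95% of hashtag UMIs and -0.70 with a pseudocount of 50 CPM. The average was -0.89 with comparison cells weighted to the depth of members. At equal depth Bcl2 was detected in 14.7% of members (10.3 to 20.2%) and 25.3% of comparison cells, and before thinning in 26.0% and 40.1%. The share in members was close to the 14.9% of the other hashtag rows. Along the sum, Bcl2 stood at 169, 149, 105 and 68.9 CPM. Of the 17 compared genes of survival and death, 2 were lower in all 4 rows, against 15.6% of all genes compared. They were Bcl2 and Bbc3 (-0.35), which encodes the pro-apoptotic protein PUMA. In the same list 3 were higher in all 4 rows, against 5.73% of all genes compared. Among them were the Bcl2 relative Mcl1 (0.19) and the initiator caspase Casp8 (0.44). The median of the list was -0.03.

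Klrb1c, the gene of the sorting marker NK1.1, stood at 264, 314, 334 and 445 CPM in members and at 392, 433, 336 and 436 CPM in comparison cells (-0.25). At equal depth it was detected in 41.0% of members (34.4 to 47.9%) and 53.2% of comparison cells, lower in all 4 rows. Before thinning the shares were closer, at 63.6% and 69.3%. Along the sum, Klrb1c stood at 411, 409, 387 and 288 CPM, so the lower level lay mainly in the top class. Since NK1.1 was a gate of the stage 3 sort, its level is bounded by the sort in cells of that gate. Klra5, an inhibitory receptor of the Ly49 family, had an average of -0.93 with a level of 0 in row 16, and its share at equal depth was 4.61% and 5.22%.

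**Figure D4:**
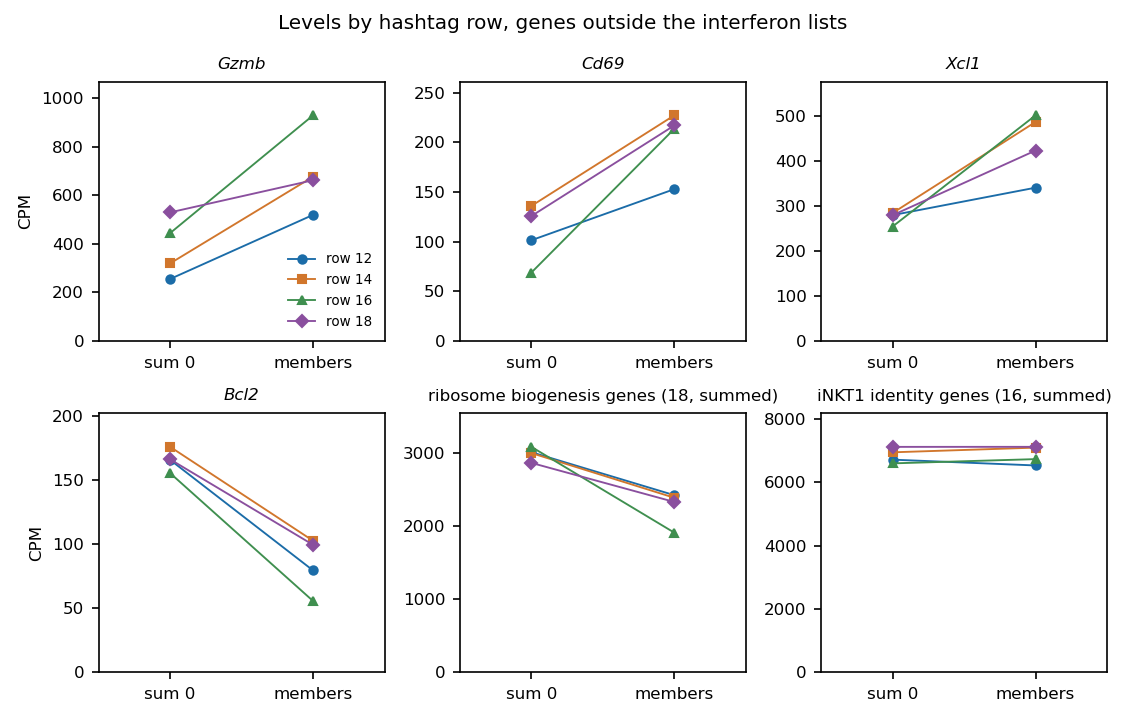
Level in CPM (vertical axes, each from 0) in cells with a sum of 0 and in members, with 1 line per hashtag row, for Gzmb, Cd69, Xcl1, Bcl2 and the summed ribosome biogenesis and iNKT1 identity lists. All 4 lines go up for Gzmb, Cd69 and Xcl1 and down for Bcl2 and ribosome biogenesis (2984 to 2327 CPM over all rows), and they stay level for the identity genes.

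Genes that build ribosomes were lower together, by averages under 2-fold. Of 18 compared, 0 were past 2-fold and 15 were lower in all 4 rows, against 15.6% of all genes compared. Their summed level was 2426, 2390, 1913 and 2333 CPM in the members of rows 12, 14, 16 and 18 and 3014, 3002, 3087 and 2868 CPM in the comparison cells. The rows did not overlap. The median log2 ratio of the list was -0.46, beside -0.12 over all genes. Npm1, a nucleolar chaperone, stood at 819 against 1000 CPM (-0.35), and Fbl, which methylates ribosomal RNA, at 181 against 251 CPM (-0.55). Nop58, of the same complex as Fbl, stood at 98.7, 91.9, 9.29 and 96.0 CPM in members and at 116 to 144 CPM in comparison cells, so its average of -0.98 rests largely on row 16 and was -0.31 without it, and it was -1.24, -1.17 and -1.21 without rows 12, 14 and 18. Cells with a sum of 1 to 3 lay between the other classes, with 2831 CPM of the list.

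The scale of CPM enters here. The interferon lists with the rule genes took 5.48% of all UMIs in members and 2.55% in comparison cells, which lowers the CPM of all other genes by a few percent. The ribosome biogenesis list stood at 2327 CPM in members and 2984 CPM in comparison cells, and the median log2 ratio of all genes was -0.12. The part of the scale in the lower level of the list was not tested. Ribosomal protein transcripts took 23.2% and 23.9% of UMIs.

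Cycle genes were scarce in both groups. The list of G2 and mitosis genes had 7 of 15 compared genes lower in all 4 rows, against 15.6% of all genes compared. Of these, 1, Mki67, was past 2-fold. Mki67, a marker of dividing cells, stood at 22.3, 21.6, 18.6 and 96.0 CPM in members and at 66.0, 53.3, 81.9 and 127 CPM in comparison cells (-1.07). Its share of cells at equal depth was 7.37% in members and 7.48% in comparison cells, so the lower level was not matched by fewer cells with a UMI. Along the sum Mki67 stood at 76.5, 64.1, 23.5 and 68.9 CPM, with no steady order. It is among the 15 lower genes from which no difference is read below. G2 and mitosis genes summed to 384 CPM in members and 502 CPM in comparison cells, and S phase genes to 1016 and 1080 CPM.

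No difference is read from the 15 genes counted as lower, which had few UMIs in members. In simulated counts, 7973 genes were set to no difference, and the rule called 16 of them lower (0.201%) and 0 higher. Their median log2 ratio was -0.17. Other genes of the same run were given differences, which shift the CPM of the rest. The simulation therefore does not give the share of calls expected without any difference. Furthest of the 15 was Mdn1, an ATPase of ribosome assembly, at 22.3, 10.8, 27.9 and 3.56 CPM in members and 47.4 to 53.4 CPM in comparison cells (-1.34). Cdc25b (-1.24), Nop2 (-1.14) and Tsr1 (-1.10) were at 0 in the 30 members of row 16. No gene was lower under every alternative setting, and the count of lower genes went from 0 to 246 with the pseudocount alone.

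AP-1 and dissociation genes, which respond to tissue disruption, summed to 8858 CPM in members and 9287 CPM in comparison cells, with 0 of 22 compared genes past 2-fold. Glycolysis genes summed to 5068 and 5195 CPM, with 0 of 13 past 2-fold. Of the cytokine and chemokine receptors 0 of 12 compared genes were past 2-fold, and of the exhaustion and checkpoint genes 0 of 5. These lists held 19 and 10 genes, and the rest had too few UMIs to be compared. The median of the exhaustion list ran from 0.36 in row 12 to -1.10 in row 16. Over all genes compared, 1.24% were higher and 0.184% lower. Counts of 0 in lists this small therefore do not show that a list was unchanged.

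**Figure D5:**
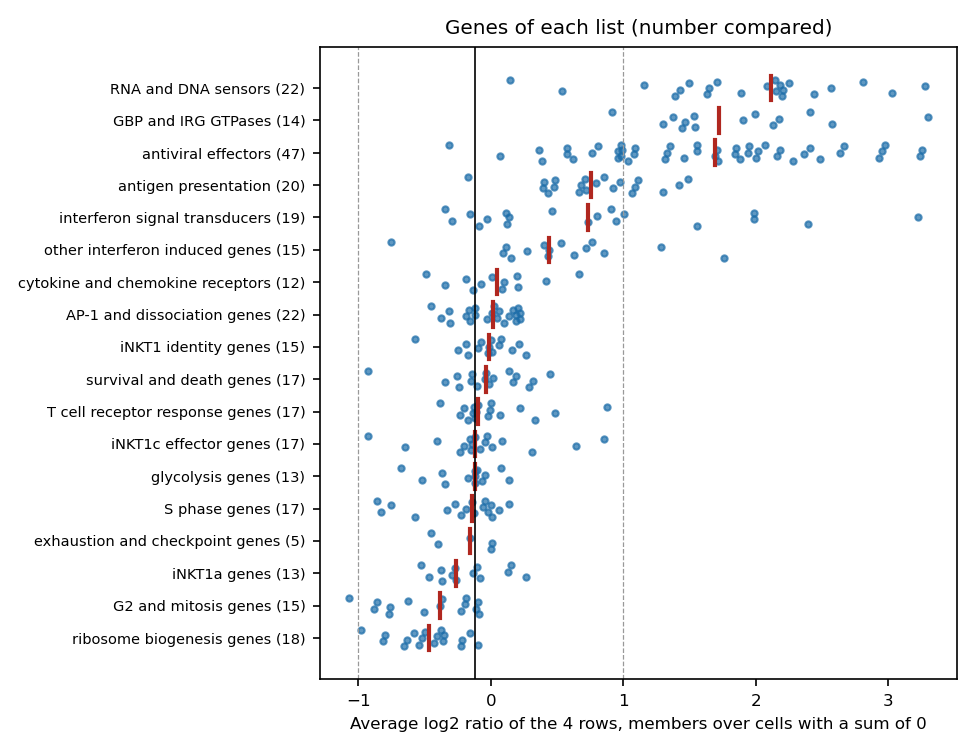
Average log2 ratio of the 4 rows, members over cells with a sum of 0 (horizontal axis), with 1 point per compared gene in each list, the median of the list as a red bar, the median of all genes (-0.12) as a black line and 2-fold as dashed lines. The medians of the 6 interferon lists lie right of the black line, and ribosome biogenesis has the lowest median (-0.46).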

How the data were processed

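Counts of UMIs per gene, hashtag and barcode were deposited as 1 matrix, which the authors made with Cell Ranger 6.0.0 and a prebuilt mouse mm10 reference. For the release of that reference, the sources used here name none. The matrix held 85673127 gene UMIs in 16179 barcodes, and 20495363 of them lay in the 5758 cells of hashtag rows 12, 14, 16 and 18. The members and gene lists were chosen with earlier results of these data known. Cells were filtered and assigned as given at the start of the results. No doublet caller was run, and free RNA was not removed; instead, at least 80% of hashtag UMIs had to lie on 1 row, and a limit of 4000 genes was tried as an alternative.

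UMIs were summed over the cells of each class and row, divided by the summed total and scaled to 1000000 (CPM). Log2 ratios used a pseudocount of 10 CPM, which understates differences of low genes. Genes with at least 200 UMIs over the 4 rows were compared. Without labels that tie rows to samples, rows are not replicates of a group, and no p-value was computed. Intervals were exact Clopper-Pearson for shares and exact Poisson for CPM, at 95%, and leave out all but counting error. The text names the rule genes and markers, genes of each list past the fold or at its ends, and up to 12 genes in each direction outside the interferon lists. Other genes, such as Klrb1c, Nop58, H2-K1 and Tmem173, were named after their values were seen. Promoter sequences and coordinates were taken from RefSeq GRCm38.p6. Work was done in Python 3.11.15 with numpy 2.4.6, scipy 1.17.1 and pandas 2.3.3, and the comparison was tested on simulated data. Alternatives changed the sum, the cell filters, the hashtag share, depth, the pseudocount, the gene filter, the totals, the fold and the rows used. One gene of the lists is counted there but not reported here.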

Additional observations from a re-analysis of the deposited data

Results flagged for a closer look

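In 3 of 23 values checked over the 4 rows, 1 row lay far from the others, which chance gives for about 1 in 20 such values. The median log2 ratio of the interferon signal transducers was 0.69 in row 14. That of the AP-1 and dissociation genes was 0.26 in row 16, and that of the G2 and mitosis genes was -0.94 in the same row, which held the fewest members.

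The other 4 hashtag rows in use, which no comparison of the report covers, also held cells with a sum of at least 4. Their share was 16.7% in row 11, 9.49% in row 13, 9.90% in row 15 and 5.66% in row 17. The median depth of these rows was 6500 to 8068 UMIs per cell, against 3258 to 3804 UMIs in rows 12, 14, 16 and 18. The part of depth in this difference was not tested.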

How the results depend on the processing

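The count of genes higher was 91 to 116 under all alternatives but 2, a pseudocount of 50 CPM (65 genes) and a fold of 1.5 (167 genes). With a fold of 1.5 aside, 59 genes were higher under every setting, 56 of them in the interferon lists. The number of higher genes outside those lists was 21, and 4 with a pseudocount of 50 CPM, 64 with a fold of 1.5 and 33 when the rows were summed before the ratio, an alternative chosen after seeing the data. The count of lower genes was not stable. From 15 it went to 58 with a sum of at least 6, 108 with at least 95% of hashtag UMIs, 246 with a pseudocount of 1 CPM, 0 with a pseudocount of 50 CPM, 47 with totals without ribosomal protein and Gm genes, 287 with a fold of 1.5 and 9 with rows summed. Leaving out 1 row at a time gave 16 to 60 lower genes, and no gene was lower under every setting.

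The share of members was 5.07% with a sum of at least 3, 2.78% with a sum of at least 6 and 2.71% at equal depth, and 3.58 to 4.95% with each row left out in turn. The last value is without row 14. Row 14 had the lowest share in each of these settings that kept it. Some values changed sign under an alternative. Izumo1r went from -0.11 to 0.03 without row 12 or row 16 and to 0.06 with rows summed, and its share of cells with a UMI was higher in members at full depth and lower at equal depth. Klra1 went from -0.65 to 0.01 without row 16. Signs also changed for the medians of 6 lists outside the interferon genes, among them T cell receptor response (-0.10, and 0.14 with at least 95% of hashtag UMIs) and cytokine and chemokine receptors (0.04, and -0.10 with at least 500 genes). The cause of the moves was not tested, beyond what fewer cells or another fold bring by construction. Row 16 has 30 members, so the floor of 3 UMIs and the small totals limit what can be said of low genes there.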
